A study of Mus musculus with 16 samples.

Results

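The genes described here encode the Wnt ligands, the R-spondins, the Frizzled and Lrp receptors, the secreted Sfrp and Dkk antagonists, the Axin scaffolds and the transcription factors Lef1 and Tcf7. They were selected by gene symbol alone, and 47 of the 29535 genes in the table matched: 19 ligands, 4 R-spondins, 12 receptors, 8 secreted antagonists and 4 genes of the Axin, Lef1 and Tcf7 group. RNA was sequenced from the prostates of mice carrying either the wild type (+/+) or the homozygous mutant (-/-) genotype of a single gene, each given vehicle or finasteride. Finasteride blocks 5α-reductase, the enzyme that converts testosterone to the stronger androgen dihydrotestosterone. There were 3 wild type vehicle, 5 wild type finasteride, 3 mutant vehicle and 5 mutant finasteride libraries. All came from prostate at 12 months of age on a mixed 129/SvImJ and C57Bl/6J background, so no group was on a single inbred strain. Neither the dose and length of treatment nor the lobe is given, and the labels name no promoter or Cre line for the mutation. Nothing in the labels states that the libraries came from different mice, and the p-values therefore cover only the variation among these libraries, which may be technical.

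Wnt ligands are secreted, lipid-modified proteins that bind a Frizzled receptor together with Lrp5 or Lrp6. Binding halts the destruction of β-catenin by the Axin complex, and β-catenin then acts with factors such as Lef1 and Tcf7 on target genes. R-spondins strengthen the signal by removing the ubiquitin ligases Rnf43 and Znrf3, which clear Frizzled from the cell surface, whereas Sfrp proteins capture ligands and Dkk1 and its close relatives block the Lrp receptors. In the prostate, Wnt signals pass between stroma and epithelium during growth.

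The sequences that bear on these genes are their promoters, since the Wnt pathway acts through a short DNA motif and finasteride acts through androgen. The RefSeq promoter table, on build GRCm38.p6, held 22 of the 37 expressed members, and the 250 bases before each start were searched on both strands. The core motif bound by Lef1 and Tcf7, CTTTGAT, was present in 3.21% of 32851 promoters of this length and, among the members, at Wnt11 and Wnt5b. The hexamer AGAACA, the half-site of the androgen response element, was present in 16.1% of all promoters and at Axin2, Dkk2, Lef1 and Wnt5b, or 4 of the 22. The full element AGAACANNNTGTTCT, which contains that half-site, occurred in 0.00913% of all promoters and in none of the 22. The percentages count single promoters, whereas a member counted if any of its listed starts, up to 4, matched, so the measures differ. Printed here 5′ to 3′ on the plus strand, with the match in capitals, are Axin2 (chr11:108920099-108920348), the member most used as a readout of Wnt signalling, and Wnt11 (chr7:98834862-98835111), a ligand with the Lef1 and Tcf7 core. Sp5 (chr2:70474673-70474922), a target gene outside the member list whose level differed most between the vehicle groups among the other pathway genes, is shown with them.
Axin2: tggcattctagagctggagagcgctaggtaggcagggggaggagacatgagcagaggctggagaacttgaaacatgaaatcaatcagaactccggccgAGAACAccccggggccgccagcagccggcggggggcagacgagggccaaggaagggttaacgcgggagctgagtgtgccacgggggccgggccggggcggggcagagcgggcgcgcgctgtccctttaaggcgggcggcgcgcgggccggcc
Wnt11: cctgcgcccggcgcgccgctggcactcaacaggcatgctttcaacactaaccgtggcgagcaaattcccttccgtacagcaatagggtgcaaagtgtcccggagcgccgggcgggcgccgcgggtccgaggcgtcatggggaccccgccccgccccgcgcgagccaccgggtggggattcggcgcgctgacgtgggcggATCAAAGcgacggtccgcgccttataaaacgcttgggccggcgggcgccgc
Sp5: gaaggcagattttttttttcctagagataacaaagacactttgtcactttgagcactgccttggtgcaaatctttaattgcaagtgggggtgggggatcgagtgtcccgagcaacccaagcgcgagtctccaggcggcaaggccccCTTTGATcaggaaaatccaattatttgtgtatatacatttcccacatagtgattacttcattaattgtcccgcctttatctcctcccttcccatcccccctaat
The half-site lies 152 to 147 bases before the Axin2 start, and the core lies 51 to 45 bases before the Wnt11 start, on the minus strand, and 104 to 98 bases before the Sp5 start. A second listed Wnt11 start has no such match. A match of letters describes these windows only.

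Values are normalized log2 expression, and the read depth behind them is unknown. Taken out of log2, they summed to log2 totals of 24.07 to 24.55 per library. In 5 libraries, namely wild type vehicle 3, wild type finasteride 4, mutant vehicle 3 and mutant finasteride 3 and 4, the values lay close to a weighted average of 2 other libraries of the same group, with a residual SD of 0.0701 to 0.097 against 0.116 to 0.458 in the other 11. The counts of members, by role and of marker lists are therefore given also for the 11 libraries without them, which leaves 7 residual degrees of freedom in place of 12. Markers of luminal epithelium, the labelled tissue's secretory cells, were present throughout, with summed levels of 15.92 to 16.46 on the log2 scale. No value in the table is exactly 0. The libraries differed in other tissue. The summed level of 7 seminal vesicle genes ran from 9.67 to 21.54 in the wild type vehicle, 9.30 to 14.33 in the wild type finasteride, 16.64 to 17.94 in the mutant vehicle and 16.69 to 21.54 in the mutant finasteride libraries. The 10 fibroblast markers summed to 14.52 to 14.69, 13.66 to 14.23, 13.69 to 13.90 and 14.11 to 14.42 in the same order. In bulk tissue, fewer cells of a type and less RNA per cell cannot be told apart.

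**Figure D1:**
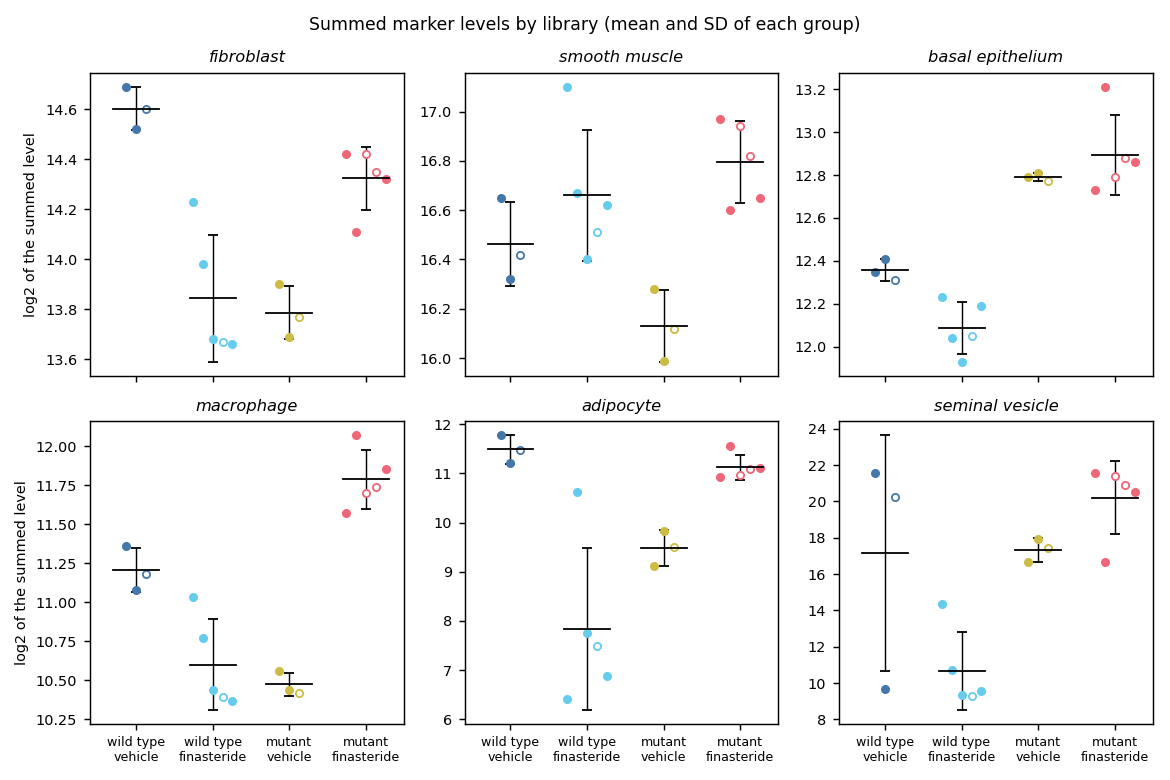
Log2 of the summed level of 6 lists of cell type markers (y axis) in each library of the 4 groups (x axis), with the group mean and SD as bars; white-filled points are the 5 libraries close to a mixture of others. Fibroblast markers are highest in wild type vehicle, at 14.52 to 14.69, and seminal vesicle genes range from 9.67 to 21.54 within that one group.

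Of the 47 members, 37 were expressed, with a mean log2 value of at least 3.32, and all 12 receptors were among them. The expressed ligands were 12 of 19, namely Wnt2, Wnt2b, Wnt3a, Wnt4, Wnt5a, Wnt5b, Wnt6, Wnt7b, Wnt9a, Wnt10a, Wnt10b and Wnt11. Expressed too were 3 of 4 R-spondins (Rspo1, Rspo2 and Rspo3), 6 of 8 antagonists (Dkk2, Dkk3, Sfrp1, Sfrp2, Sfrp4 and Sfrp5), and both Axin genes with Lef1 and Tcf7. Below the threshold were Wnt1, Wnt3, Wnt7a, Wnt8a, Wnt8b, Wnt9b, Wnt16, Rspo4, Dkk1 and Dkk4, with single values between 0.22 and 3.96. The nearest member below it, Wnt16, had a mean of 2.63, and the nearest above, Wnt3a, had 3.49. Wnt9b, below the threshold over all libraries, was between 2.94 and 3.65 in mutant finasteride and between 0.40 and 2.49 in wild type vehicle libraries. No test was made of genes below the threshold.

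Per kilobase of the longest coding transcript, mean log2 levels in wild type vehicle were highest for the receptors Fzd6 at 8.41, Lrp5 at 8.38 and Lrp6 at 8.17, with Axin1 at 8.00. The ligand highest on this scale was Wnt7b at 7.49, followed by Wnt4 at 6.60 and Wnt5a at 6.28. Among antagonists, Sfrp2 was at 7.0, Sfrp1 at 6.92, Dkk3 at 6.23 and Sfrp5 at 6.01, while Sfrp4 was at 2.58. In mutant finasteride libraries Wnt4, at 8.05 per kilobase, stood above Wnt7b at 7.79. Lengths come from GENCODE vM21, so which transcript is made in the prostate was not measured, and neighbours in this order were not tested against each other.

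In the mutant on vehicle, compared with the wild type on vehicle, 5 of the 6 expressed antagonists were lower and Wnt2, Wnt10a, Axin2, Tcf7 and Lef1 were higher. Here 9 of the 37 members rose and 11 fell by limma with a Benjamini-Hochberg adjusted p under 0.05, where 14.6% of all 16503 tested genes rose and 17.5% fell. Over 11 libraries 3 rose and 5 fell, against 3.96% and 5.34% of all genes. Passing there were Wnt2, Wnt10a, Axin2 and, of the antagonists, Sfrp1 alone, whereas Tcf7 and Lef1 did not pass. After quantile normalization the split was 11 to 7, and that of all genes turned the same way, from 2408 higher and 2891 lower to 2863 and 2429. The median member changed by -0.11, with 0.00 over all tested genes.

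Finasteride in the wild type gave 10 members higher and 9 lower, with 18.4% of all genes higher and 21.7% lower. Over 11 libraries the counts were 5 and 3, where 3.65% and 5.06% of all genes passed. With the seminal vesicle level as a covariate 6 rose and 4 fell, and the counts of all genes dropped from 3034 higher and 3584 lower to 1187 and 1688. The median member changed by -0.19 and the median gene by -0.02.

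Finasteride in the mutant raised more members than it lowered. Here 16 members rose and 3 fell, where 25.7% of all genes rose and 22.8% fell, and the median member changed by 0.26 against -0.01 for all genes. Over 11 libraries 5 members rose and 1 fell, where 11% of all genes (1812) rose and 9.24% fell. The split was 7 to 6 after quantile normalization, where the counts of all genes moved from 4235 higher and 3760 lower to 3237 and 4688.

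Between the genotypes on finasteride, 13 members were higher in the mutant and 5 lower, against 33.2% and 30.4% of all genes. These counts became 7 and 4 over 11 libraries, where 21.9% and 19.1% of genes passed, and 8 and 11 after quantile normalization, where all genes gave 4302 and 6106 in place of 5474 and 5023. With the seminal vesicle covariate they were 5 and 3, and those of all genes fell to 2936 and 2669. Higher calls were thus about as frequent among the members as among all genes, and lower calls were less frequent, a difference that was not tested.

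The interaction asks whether finasteride acted differently in the mutant and in the wild type. It was positive in 15 members and negative in 8, where 29.4% of all genes were positive and 27.2% negative. Over 11 libraries the counts were 10 and 5, against 17.1% and 12.3%. Scaling changed the split, which was 12 to 12 after quantile normalization and 13 to 11 after median scaling. For all genes quantile normalization gave 3650 positive and 5548 negative in place of 4855 and 4481. Median scaling moved the median interaction of all genes to -0.21 and quantile normalization to -0.16. The genotype and finasteride contrasts share control libraries, so their values are given side by side without a measure of their likeness.

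**Figure D2:**
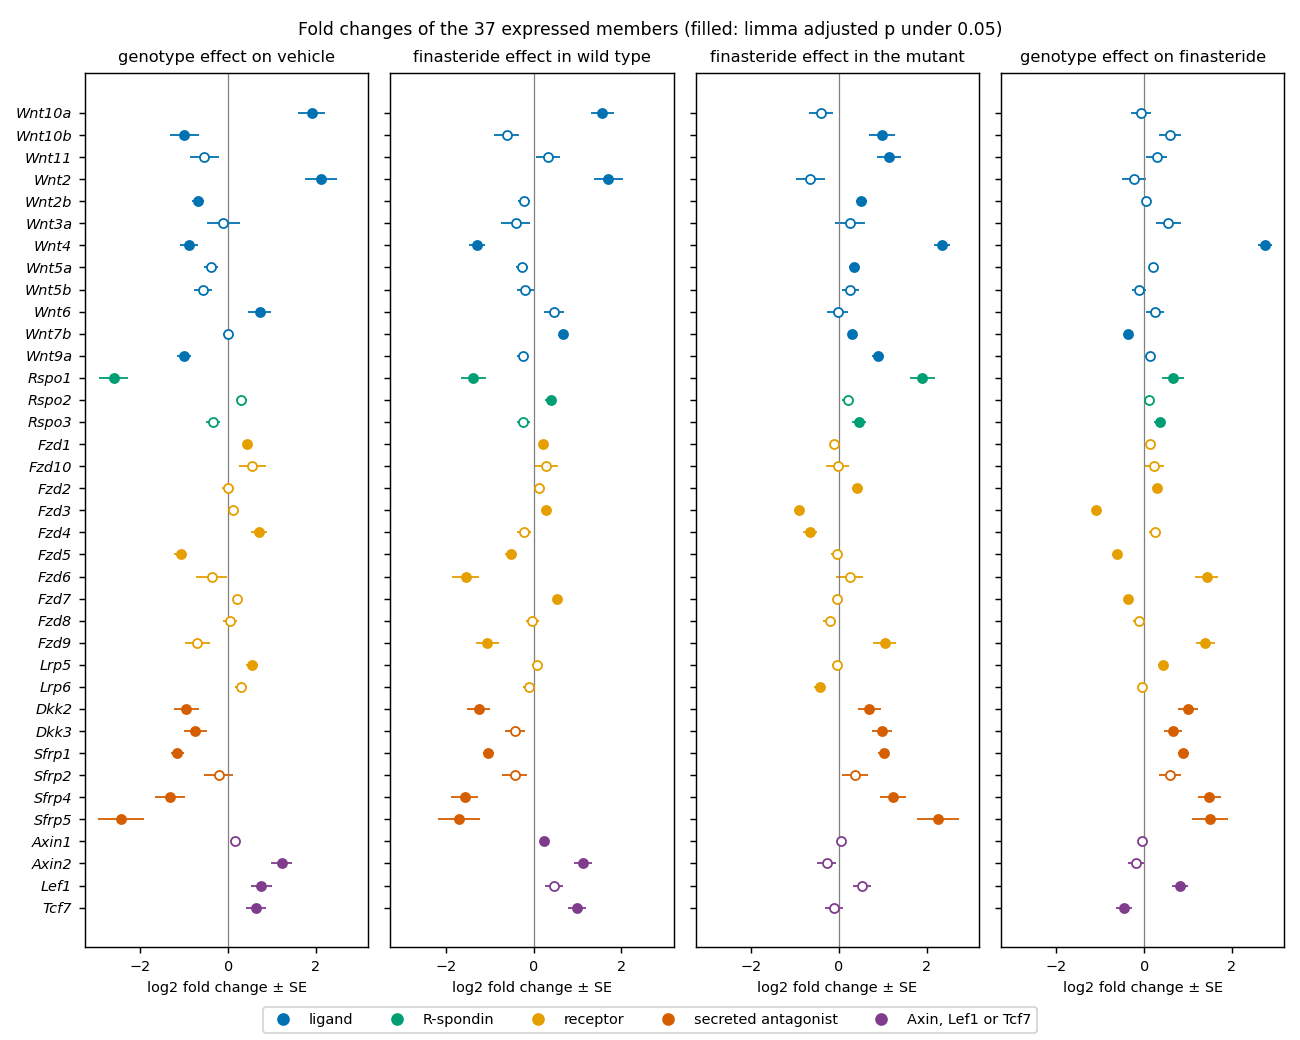
Log2 fold change ± SE (x axis) of each of the 37 expressed members (y axis, coloured by role) in 4 comparisons; filled points passed limma's adjusted threshold. In vehicle mice 5 of 6 antagonists lie left of 0 as filled points, and on finasteride the same number lie right of 0.

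The secreted antagonists that passed moved in 1 direction in each comparison. Of the 6 expressed, 5 fell in the mutant on vehicle and 4 fell with finasteride in the wild type, with median changes of -1.05 and -1.14. With finasteride in the mutant 5 rose, and 5 were higher in the mutant than in the wild type on finasteride, with medians of 1.0 and 0.94. The interaction was positive in 5 of 6, with a median of 2.0. Among all genes, 17.5% fell in the mutant on vehicle, 21.7% fell with finasteride in the wild type and 25.7% rose with it in the mutant. Between genotypes on finasteride 33.2% were higher in the mutant, and the interaction was positive in 29.4%. Over 11 libraries these 5 shares were 5.34%, 5.06%, 11%, 21.9% and 17.1%. They serve as background for the marker lists below as well. In the fit of 11 libraries the antagonist counts were 1 lower on vehicle, 2 lower with finasteride in the wild type and 1 higher with finasteride in the mutant. There, 3 antagonists were higher between genotypes on finasteride and 4 had a positive interaction. With the seminal vesicle covariate the antagonist counts were 5, 2, 4, 1 and 5, and after quantile normalization 3, 4, 3, 2 and 5. All 5 antagonist medians kept their sign after quantile normalization and after median scaling. Fibroblast markers moved the same way. Of 10, 7 fell in the mutant on vehicle and 5 with finasteride in the wild type, while 6 rose with finasteride in the mutant. Between genotypes on finasteride 6 were higher in the mutant, and the interaction was positive in 8. For fibroblast markers these counts were 2, 3, 1, 0 and 6 over 11 libraries, and 7, 3, 6, 0 and 5 with the covariate. Of the adipocyte markers, 7 of 7 fell with finasteride in the wild type (median -3.81), 7 of 7 were higher in the mutant on finasteride (median 3.71), and the interaction was positive in 7 of 7 (median 5.38), while 2 fell in the mutant on vehicle and 3 rose with finasteride there. They summed to 11.21 to 11.78, 6.42 to 10.62, 9.11 to 9.83 and 10.92 to 11.56 in wild type vehicle, wild type finasteride, mutant vehicle and mutant finasteride. Over 11 libraries these 5 counts were 5, 7, 7, 0 and 1. Macrophage markers moved in the same directions, with 6 of 6 lower in the mutant on vehicle and 6 of 6 higher with finasteride in the mutant, as did nerve and glia markers, with 5 of 7 lower and 6 of 7 higher. Over 11 libraries 0 and 6 of the macrophage markers and 0 and 2 of the nerve and glia markers passed. Macrophage markers summed to 11.08 to 11.36, 10.37 to 11.03, 10.42 to 10.56 and 11.57 to 12.07 in wild type vehicle, wild type finasteride, mutant vehicle and mutant finasteride, and nerve and glia markers to 9.56 to 11.94, 8.42 to 9.09, 8.83 to 9.34 and 9.16 to 11.43. Their part in the antagonist result was not tested.

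Sfrp1, a Frizzled-like protein that binds Wnt ligands outside the cell, passed in all 5 contrasts. Its log2 values were 9.28, 8.86 and 9.02 in wild type vehicle, 8.34, 8.21, 7.77, 7.90 and 7.90 in wild type finasteride, 7.92, 7.80 and 7.97 in mutant vehicle, and 9.07, 8.66, 9.0, 8.94 and 8.91 in mutant finasteride libraries. The high groups, wild type vehicle and mutant finasteride, did not overlap with the low groups. Sfrp1 was lower by a log2 change of -1.16 ± 0.15 (SE, limma adjusted p = 3.88e-05) in the mutant on vehicle and of -1.03 ± 0.13 (adjusted p = 7.54e-05) with finasteride in the wild type. Finasteride raised it in the mutant by 1.02 ± 0.13 (adjusted p = 2.28e-05), and the interaction was 2.05 ± 0.19 (adjusted p = 8.05e-07). On finasteride it was 0.89 ± 0.12 higher in the mutant (adjusted p = 7.80e-06). All 5 calls held over 11 libraries, where the interaction was 2.04 (adjusted p = 0.00125). They held with the seminal vesicle covariate too, although the genotype difference on finasteride was then 0.47 (adjusted p = 0.0253).

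Sfrp5, a close relative, ranged more widely. It measured 6.04, 7.79 and 6.99 in wild type vehicle, 5.87, 5.64, 5.00, 4.95 and 4.80 in wild type finasteride, 5.02, 3.78 and 4.68 in mutant vehicle, and 7.59, 5.44, 7.32, 7.08 and 6.31 in mutant finasteride libraries. Mutant vehicle lay below wild type vehicle and mutant finasteride, while mutant finasteride 2, at 5.44, fell within the wild type finasteride range. The change was -2.44 ± 0.53 (adjusted p = 0.00274) in the mutant on vehicle, -1.69 ± 0.48 (adjusted p = 0.0116) with finasteride in the wild type and 2.26 ± 0.48 (adjusted p = 0.00128) with finasteride in the mutant. The finasteride call in the wild type was lost without wild type vehicle 2 (adjusted p = 0.0697). Only the interaction, 3.94 ± 0.68 (adjusted p = 1.84e-04), was also called over 11 libraries, at 3.64 (adjusted p = 0.0174).

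Sfrp4, which also binds Wnt ligands, moved at low levels. Values were 4.79, 4.40 and 4.62 in wild type vehicle, 2.79, 3.32, 3.59, 3.17 and 2.28 in wild type finasteride, 3.69, 3.26 and 2.87 in mutant vehicle, and 5.11, 4.03, 4.58, 4.56 and 4.24 in mutant finasteride libraries. Every wild type finasteride and mutant vehicle library was below every library of the other groups. Sfrp4 fell by 1.33 ± 0.34 in the mutant on vehicle (adjusted p = 0.00752) and by 1.57 ± 0.30 with finasteride in the wild type (adjusted p = 0.00114), and rose by 1.23 ± 0.30 with finasteride in the mutant (adjusted p = 0.00367). The interaction of 2.81 ± 0.43 (adjusted p = 7.13e-05) was called over 11 libraries too (2.59, adjusted p = 0.0130). So was the fall with finasteride in the wild type (adjusted p = 0.0464). The change in the mutant on vehicle and that with finasteride in the mutant were not (adjusted p = 0.188 and 0.145). Sfrp2 passed in no contrast. Its interaction was 0.80 ± 0.41 (adjusted p = 0.112).

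Dkk2, which binds Lrp5 and Lrp6, followed the Sfrp genes. It was 7.25, 6.81 and 7.03 in wild type vehicle, 6.08, 5.99, 5.26, 5.96 and 5.62 in wild type finasteride, 6.37, 5.71 and 6.19 in mutant vehicle, and 7.15, 5.98, 7.24, 6.77 and 6.74 in mutant finasteride libraries. Mutant finasteride 2, at 5.98, overlapped the low groups. Finasteride in the wild type lowered Dkk2 (-1.25 ± 0.26, adjusted p = 0.00201). On vehicle it was lower in the mutant (-0.95 ± 0.29, adjusted p = 0.0227, and 0.104 without mutant vehicle 2), and with finasteride in the mutant it rose (0.69 ± 0.26, adjusted p = 0.0406, and 0.194 without mutant vehicle 2). The interaction was 1.94 ± 0.37 (adjusted p = 4.61e-04) and over 11 libraries 1.88 (adjusted p = 0.0221). The 3 changes before it did not pass over 11 libraries (adjusted p = 0.0503, 0.163 and 0.289 in the order given).

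Dkk3, a divergent family member, was 7.50, 8.40 and 8.04 in wild type vehicle, 8.01, 7.49, 7.37, 7.28 and 7.65 in wild type finasteride, 7.39, 7.10 and 7.20 in mutant vehicle, and 8.64, 7.58, 8.45, 8.32 and 8.07 in mutant finasteride libraries. The wild type groups overlapped, whereas all mutant finasteride libraries were above all mutant vehicle libraries. Dkk3 rose with finasteride in the mutant by 0.98 ± 0.23 (adjusted p = 0.00290), and the interaction was 1.40 ± 0.33 (adjusted p = 0.00220), though neither passed over 11 libraries (adjusted p = 0.0989 and 0.0817). It was lower in the mutant on vehicle (-0.75 ± 0.26, adjusted p = 0.0387), a call lost without wild type vehicle 2 (adjusted p = 0.164).

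**Figure D3:**
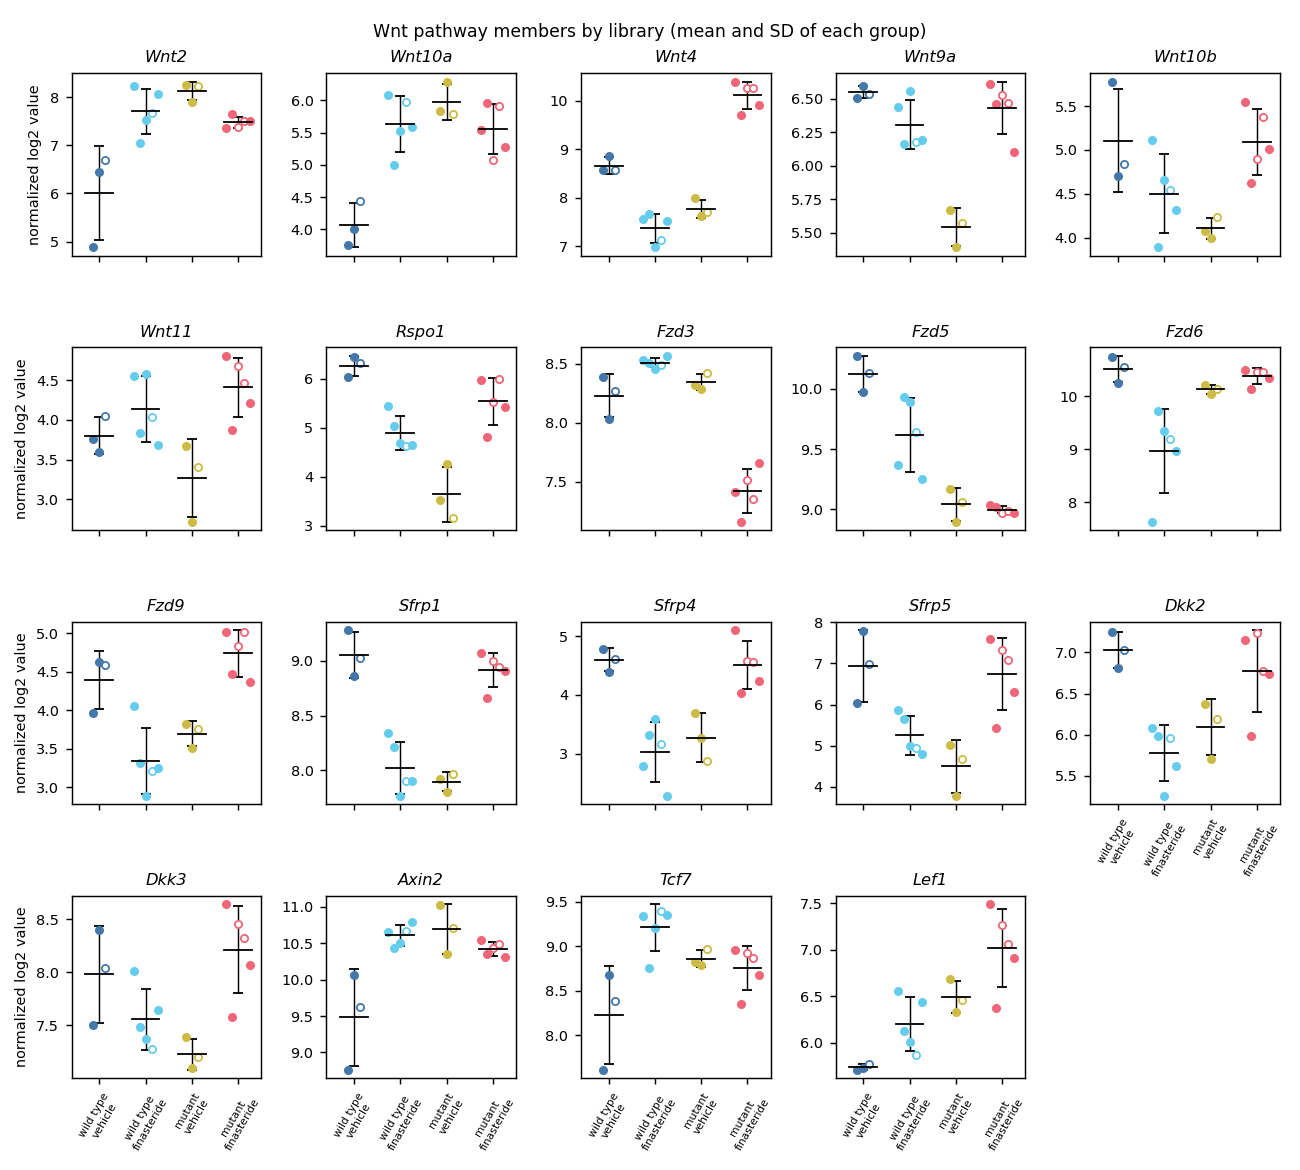
Normalized log2 value (y axis) of 19 members in every library of the 4 groups (x axis), with group mean and SD; white-filled points are the 5 libraries close to a mixture of others. Sfrp1 and Wnt4 show groups without overlap, while Axin2 and Wnt2 spread from 8.76 to 10.07 and from 4.88 to 6.69 within wild type vehicle.

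The ligands split into members with different patterns. In the mutant on vehicle 3 of 12 rose and 4 fell, and with finasteride in the wild type 3 rose and 1 fell. With finasteride in the mutant 7 rose and 0 fell by limma, while after quantile normalization 2 rose and 3 fell. Of all genes, 14.6% rose and 17.5% fell in the first of these 3 comparisons, and 18.4% and 21.7% in the second. In the third 25.7% rose and 22.8% fell, and quantile normalization took 4235 higher and 3760 lower to 3237 and 4688. Ligand counts over 11 libraries were 2 and 2, 3 and 1, and 3 and 0 in the same order. The shares of all genes there were 3.96% and 5.34%, 3.65% and 5.06%, and 11% and 9.24%. Wnt2, Wnt6 and Wnt10a rose in the first of these comparisons, and Wnt2, Wnt7b and Wnt10a in the second.

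Wnt4, a ligand with known roles in urogenital development, had the largest change with finasteride in the mutant among the members. It measured 8.57, 8.86 and 8.57 in wild type vehicle, 7.57, 7.66, 6.98, 7.14 and 7.53 in wild type finasteride, 7.99, 7.63 and 7.70 in mutant vehicle, and 10.40, 9.72, 10.27, 10.27 and 9.92 in mutant finasteride libraries. All mutant finasteride libraries were above all others, and wild type vehicle was above both remaining groups. Finasteride lowered Wnt4 in the wild type (-1.29 ± 0.18, adjusted p = 1.11e-04) and raised it in the mutant (2.35 ± 0.18, adjusted p = 1.34e-07). The genotypes differed on finasteride by 2.75 ± 0.15 (adjusted p = 1.26e-09), and the interaction was 3.64 ± 0.25 (adjusted p = 5.48e-08). Over 11 libraries the interaction was 3.49 (adjusted p = 3.31e-04), and these 3 other calls held as well. On vehicle Wnt4 was lower in the mutant by a log2 change of -0.89 ± 0.20 (adjusted p = 0.00299), which did not pass over 11 libraries (adjusted p = 0.0661).

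Wnt2, a ligand typically made by mesenchyme, was 4.88, 6.44 and 6.69 in wild type vehicle, 8.23, 7.05, 7.52, 7.67 and 8.06 in wild type finasteride, 8.25, 7.90 and 8.23 in mutant vehicle, and 7.36, 7.64, 7.37, 7.51 and 7.51 in mutant finasteride libraries. Wild type vehicle was below all other libraries, with its first library far below the other 2. Wnt2 was 2.12 ± 0.36 higher in the mutant on vehicle (adjusted p = 4.35e-04) and rose by 1.70 ± 0.33 with finasteride in the wild type (adjusted p = 0.00110). Its change with finasteride in the mutant was -0.65 ± 0.33 (adjusted p = 0.113), and the interaction was -2.35 ± 0.46 (adjusted p = 5.54e-04). The 3 calls held over 11 libraries, with an interaction of -2.62 (adjusted p = 0.0108). Fibroblast markers, which mark the mesenchyme, were highest in the group where Wnt2 was lowest, and their part in the Wnt2 result was not tested.

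Wnt10a moved with a similar shape. Its values were 3.76, 4.0 and 4.44 in wild type vehicle, 6.08, 4.99, 5.52, 5.98 and 5.59 in wild type finasteride, 5.84, 6.29 and 5.78 in mutant vehicle, and 5.54, 5.96, 5.07, 5.91 and 5.28 in mutant finasteride libraries. Wild type vehicle was below every other library, and the other groups overlapped. The mutant on vehicle was higher by 1.90 ± 0.30 (adjusted p = 2.05e-04), finasteride in the wild type raised it by 1.57 ± 0.27 (adjusted p = 5.07e-04), and the interaction was -1.98 ± 0.38 (adjusted p = 4.36e-04). Over 11 libraries these were 2.19, 1.67 and -2.14, all called (adjusted p = 0.00639, 0.0191 and 0.00817).

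Wnt9a was low in 1 group. Values were 6.51, 6.60 and 6.54 in wild type vehicle, 6.44, 6.16, 6.56, 6.18 and 6.19 in wild type finasteride, 5.67, 5.39 and 5.57 in mutant vehicle, and 6.61, 6.46, 6.53, 6.47 and 6.10 in mutant finasteride libraries. Mutant vehicle was below all other libraries, which overlapped. The mutant on vehicle was lower by a log2 change of -1.01 ± 0.16 (adjusted p = 1.81e-04), and finasteride in the mutant raised Wnt9a by 0.89 ± 0.14 (adjusted p = 1.06e-04), with an interaction of 1.13 ± 0.20 (adjusted p = 2.06e-04). These calls held over 11 libraries. After quantile normalization the finasteride change in the mutant was 0.34 and the interaction 0.22, and neither passed.

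Wnt10b measured 5.78, 4.70 and 4.84 in wild type vehicle, 5.11, 3.89, 4.66, 4.54 and 4.31 in wild type finasteride, 4.08, 4.0 and 4.24 in mutant vehicle, and 5.55, 4.62, 4.90, 5.37 and 5.01 in mutant finasteride libraries. It rose with finasteride in the mutant by 0.98 ± 0.29 (adjusted p = 0.0120), without overlap between these 2 groups, and the interaction was 1.59 ± 0.42 (adjusted p = 0.00445). The lower level in the mutant on vehicle (-1.0 ± 0.33, adjusted p = 0.0290) rested on wild type vehicle 1, without which it was -0.66 (adjusted p = 0.149). Of these calls only the interaction passed over 11 libraries (1.77, adjusted p = 0.0489), and after quantile normalization it was 0.48 and did not pass.

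Wnt11, known for signalling that does not use β-catenin, was 3.76, 3.60 and 4.05 in wild type vehicle, 4.55, 3.83, 4.58, 4.04 and 3.68 in wild type finasteride, 3.67, 2.72 and 3.41 in mutant vehicle, and 4.81, 3.88, 4.68, 4.47 and 4.22 in mutant finasteride libraries. Mutant vehicle lay just below wild type finasteride and clearly below mutant finasteride, and the other groups overlapped. Finasteride in the mutant raised Wnt11 by 1.14 ± 0.28 (adjusted p = 0.00395), which over 11 libraries was 1.11 (adjusted p = 0.0903). Its promoter, printed above, holds the Lef1 and Tcf7 core.

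The other expressed ligands changed by less than 1 log2 unit in every comparison. Wnt7b, an epithelial ligand in many organs, rose with finasteride in the wild type (0.68 ± 0.10, adjusted p = 1.83e-04) from 9.09, 9.41 and 9.27 to at least 9.83 in every library, without overlap and also over 11 libraries (adjusted p = 0.0254). On finasteride it was lower in the mutant (-0.38 ± 0.09, adjusted p = 0.00140). Its smaller rise with finasteride in the mutant (0.31 ± 0.10) and its interaction (-0.37 ± 0.14) were lost without mutant vehicle 2 and mutant vehicle 1 respectively (adjusted p = 0.120 in both). Wnt2b fell in the mutant on vehicle (-0.68 ± 0.14, adjusted p = 0.00188) and rose with finasteride there (0.51 ± 0.13, adjusted p = 0.00358), but quantile normalization turned the latter to -0.04 and the interaction from 0.73 to -0.18. Wnt5a, a ligand of the planar polarity branch, rose with finasteride in the mutant by 0.35 ± 0.13, and without mutant vehicle 2, at 8.21, the change was 0.10 (adjusted p = 0.354). Its interaction of 0.61 ± 0.19 (adjusted p = 0.0120) was 0.36 without that library. Wnt6 was 0.72 ± 0.26 higher in the mutant on vehicle, and 0.41 without wild type vehicle 1 (adjusted p = 0.219). Wnt3a and Wnt5b passed in no comparison.

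Among the R-spondins, Rspo1 changed most. It measured 6.03, 6.44 and 6.32 in wild type vehicle, 5.44, 5.03, 4.70, 4.63 and 4.66 in wild type finasteride, 3.53, 4.26 and 3.16 in mutant vehicle, and 5.97, 4.82, 5.52, 6.00 and 5.43 in mutant finasteride libraries. Wild type vehicle was highest and mutant vehicle lowest, each without overlap with any other group. Rspo1 changed by -2.61 ± 0.33 in the mutant on vehicle (adjusted p = 3.01e-05), by -1.37 ± 0.29 with finasteride in the wild type (adjusted p = 0.00218) and by 1.90 ± 0.29 with finasteride in the mutant (adjusted p = 9.74e-05). The interaction was 3.27 ± 0.41 (adjusted p = 1.37e-05). Over 11 libraries the genotype difference on vehicle (-2.34, adjusted p = 0.00937), the finasteride change in the mutant (1.51, adjusted p = 0.0221) and the interaction (2.80, adjusted p = 0.00504) passed, and the finasteride change in the wild type did not (adjusted p = 0.0557). On finasteride the mutant was 0.66 ± 0.25 higher (adjusted p = 0.0330), a call lost without mutant finasteride 4 (adjusted p = 0.0889) and turned to -0.05 by quantile normalization.

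Rspo3 rose with finasteride in the mutant by 0.46 ± 0.15 (adjusted p = 0.0157, and 0.0743 without mutant vehicle 2), and its interaction was 0.70 ± 0.21 (adjusted p = 0.00961). Rspo2 rose with finasteride in the wild type by 0.39 ± 0.12 (adjusted p = 0.0171, and 0.0611 without wild type vehicle 1). None of these passed over 11 libraries.

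The receptors showed no common direction, with 3 of 12 higher and 1 lower in the mutant on vehicle, 3 and 3 with finasteride in the wild type, 2 and 3 with finasteride in the mutant, and 4 and 3 between the genotypes on finasteride. Of all genes, 14.6% and 17.5%, 18.4% and 21.7%, 25.7% and 22.8%, and 33.2% and 30.4% were higher and lower in these comparisons. Over 11 libraries the receptor counts were 0 and 1, 1 and 0, 0 and 1, and 3 and 3. The shares of all genes were then 3.96% and 5.34%, 3.65% and 5.06%, 11% and 9.24%, and 21.9% and 19.1%. Fzd3, a receptor used in planar polarity, had 1 low group. It was 8.39, 8.03 and 8.27 in wild type vehicle, 8.53, 8.51, 8.46, 8.49 and 8.57 in wild type finasteride, 8.32, 8.29 and 8.42 in mutant vehicle, and 7.41, 7.16, 7.51, 7.35 and 7.66 in mutant finasteride libraries. All mutant finasteride libraries were below all others. Finasteride in the mutant lowered Fzd3 (-0.92 ± 0.11, adjusted p = 6.93e-06), the genotypes differed on finasteride by -1.09 ± 0.09 (adjusted p = 8.22e-08), and the interaction was -1.20 ± 0.15 (adjusted p = 1.15e-05). These calls held over 11 libraries, with an interaction of -1.20 (adjusted p = 0.00472). The rise with finasteride in the wild type, 0.28 ± 0.11 (adjusted p = 0.0443), was 0.18 without wild type vehicle 2 (adjusted p = 0.220). It did not pass in 13 of 16 fits without 1 library, nor over 11 libraries (adjusted p = 0.210).

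Fzd6, another planar polarity receptor, was 10.75, 10.25 and 10.56 in wild type vehicle, 7.63, 9.73, 9.34, 9.19 and 8.96 in wild type finasteride, 10.21, 10.05 and 10.15 in mutant vehicle, and 10.51, 10.15, 10.46, 10.46 and 10.35 in mutant finasteride libraries. Wild type finasteride was below every other library, with its first library lowest at 7.63. Finasteride lowered Fzd6 in the wild type (-1.55 ± 0.31, adjusted p = 0.00156), its change in the mutant was 0.25 ± 0.31 (adjusted p = 0.535), and the interaction was 1.8 ± 0.44 (adjusted p = 0.00299). Over 11 libraries the genotype difference on finasteride passed (1.42, adjusted p = 0.0163), whereas the change in the wild type and the interaction did not (adjusted p = 0.0537 and 0.0615).

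Fzd5, an epithelial receptor in the gut, was lower in the mutant on both treatments. Its values were 10.27, 9.97 and 10.13 in wild type vehicle, 9.37, 9.93, 9.89, 9.64 and 9.25 in wild type finasteride, 9.17, 8.90 and 9.06 in mutant vehicle, and 9.04, 9.02, 8.97, 8.99 and 8.97 in mutant finasteride libraries. Every mutant library was below every wild type library. The mutant was lower on vehicle (-1.08 ± 0.15, adjusted p = 7.06e-05) and on finasteride (-0.62 ± 0.12, adjusted p = 2.73e-04), also over 11 libraries (adjusted p = 0.0174 and 0.0203). Finasteride also lowered it in the wild type (-0.51 ± 0.13, adjusted p = 0.00775, and 0.118 over 11 libraries), without overlap, and its change in the mutant was -0.05 ± 0.13 (adjusted p = 0.793). The interaction of 0.46 ± 0.19 (adjusted p = 0.0484) was lost in 12 of 16 fits without 1 library (adjusted p up to 0.125, without wild type vehicle 1). Nor did it pass over 11 libraries (adjusted p = 0.222).

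Fzd9 was 3.96, 4.63 and 4.59 in wild type vehicle, 4.05, 3.32, 2.89, 3.21 and 3.25 in wild type finasteride, 3.82, 3.51 and 3.75 in mutant vehicle, and 5.01, 4.47, 4.83, 5.01 and 4.36 in mutant finasteride libraries. Mutant finasteride lay above both low groups. On finasteride the mutant was 1.39 ± 0.22 higher (adjusted p = 6.80e-05), finasteride raised Fzd9 by 1.04 ± 0.26 in the mutant (adjusted p = 0.00389) and lowered it in the wild type (-1.05 ± 0.26, adjusted p = 0.00527), and the interaction was 2.10 ± 0.37 (adjusted p = 2.17e-04). The genotype difference on finasteride and the interaction passed over 11 libraries (1.24 and 1.87, adjusted p = 0.0123 and 0.0257), but the 2 finasteride effects did not (adjusted p = 0.109 and 0.126).

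Smaller changes were seen in other receptors. Fzd7 rose with finasteride in the wild type (0.53 ± 0.08, adjusted p = 1.84e-04), from 9.28 to 9.46 up to 9.79 to 10.08, and was lower in the mutant on finasteride (-0.37 ± 0.07, adjusted p = 2.0e-04), with both calls kept over 11 libraries. Lrp5, a co-receptor, was higher in the mutant on vehicle (0.54 ± 0.13, adjusted p = 0.00413) and on finasteride (0.42 ± 0.10, adjusted p = 0.00148). Of these only the second passed over 11 libraries (0.50, adjusted p = 0.0162). Lrp6, its partner, fell with finasteride in the mutant (-0.44 ± 0.12, adjusted p = 0.00537, and 0.0834 over 11 libraries). Fzd4 was 0.70 ± 0.18 higher in the mutant on vehicle (adjusted p = 0.00770) and fell with finasteride there (-0.66 ± 0.16, adjusted p = 0.00342), and neither passed over 11 libraries (adjusted p = 0.122 and 0.0604). Fzd8 and Fzd10 passed in no comparison.

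Axin2, the negative feedback scaffold that β-catenin itself induces, was low in wild type vehicle. It measured 8.76, 10.07 and 9.62 in wild type vehicle, 10.65, 10.43, 10.50, 10.67 and 10.79 in wild type finasteride, 11.03, 10.35 and 10.71 in mutant vehicle, and 10.54, 10.35, 10.43, 10.49 and 10.31 in mutant finasteride libraries. Each wild type vehicle library was below every other library, by the least for the second, at 10.07. Axin2 was 1.22 ± 0.24 higher in the mutant on vehicle (adjusted p = 0.00117) and rose by 1.13 ± 0.21 with finasteride in the wild type (adjusted p = 9.84e-04). The change with finasteride in the mutant was -0.28 ± 0.21 (adjusted p = 0.30), and the interaction was -1.40 ± 0.30 (adjusted p = 0.00107). The 3 calls held over 11 libraries (adjusted p = 0.0479, 0.0415 and 0.0311), and with the seminal vesicle covariate the interaction did not pass (-0.84, adjusted p = 0.0562). Within wild type vehicle, Axin2 was lowest in the library with the highest seminal vesicle level, 21.54, and highest in the one with the lowest, 9.67. The part of that tissue in the Axin2 result was not tested beyond the covariate.

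Tcf7, a β-catenin partner also abundant in T cells, was 7.61, 8.68 and 8.38 in wild type vehicle, 9.34, 8.76, 9.21, 9.40 and 9.35 in wild type finasteride, 8.82, 8.79 and 8.97 in mutant vehicle, and 8.96, 8.35, 8.92, 8.87 and 8.68 in mutant finasteride libraries. Wild type vehicle was below both wild type finasteride and mutant vehicle. Finasteride in the wild type raised Tcf7 by 0.99 ± 0.21 (adjusted p = 0.00191), with an interaction of -1.09 ± 0.29 (adjusted p = 0.00511), and over 11 libraries neither passed (adjusted p = 0.0511 and 0.0563). The rise in the mutant on vehicle, 0.64 ± 0.23 (adjusted p = 0.0460), was 0.33 without wild type vehicle 1 (adjusted p = 0.241). This rise did not pass in 12 of 16 fits without 1 library, nor over 11 libraries (adjusted p = 0.241). The lower level in the mutant on finasteride, -0.46 ± 0.18 (adjusted p = 0.0356), was lost without mutant finasteride 2 (adjusted p = 0.0873).

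Lef1, the other factor, was 5.71, 5.73 and 5.77 in wild type vehicle, 6.55, 6.12, 6.01, 5.87 and 6.44 in wild type finasteride, 6.68, 6.33 and 6.46 in mutant vehicle, and 7.49, 6.37, 7.26, 7.06 and 6.91 in mutant finasteride libraries. Wild type vehicle was below all other libraries and mutant finasteride reached the highest values. The mutant was higher on vehicle (0.75 ± 0.24, adjusted p = 0.0249, and 0.0912 without mutant vehicle 1) and on finasteride (0.82 ± 0.18, adjusted p = 0.00120), and over 11 libraries neither passed (adjusted p = 0.175 and 0.0660). The interaction was 0.07 ± 0.30 (adjusted p = 0.853). T cell markers, beside which Lef1 and Tcf7 should be read because T cells express both, summed to 6.93 to 7.0 in wild type vehicle, 5.86 to 6.66 in wild type finasteride, 7.48 to 7.66 in mutant vehicle and 8.68 to 9.44 in mutant finasteride libraries. Of the 6, 3 rose in the mutant on vehicle and 6 were higher in the mutant on finasteride, where 14.6% and 33.2% of all genes were. Over 11 libraries 0 and 6 of these markers passed, against 3.96% and 21.9% of all genes. The part of T cells in the Lef1 and Tcf7 results was not tested. Axin1 rose with finasteride in the wild type by 0.24 ± 0.07 (adjusted p = 0.0151, and 0.0811 without wild type vehicle 1).

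**Figure D4:**
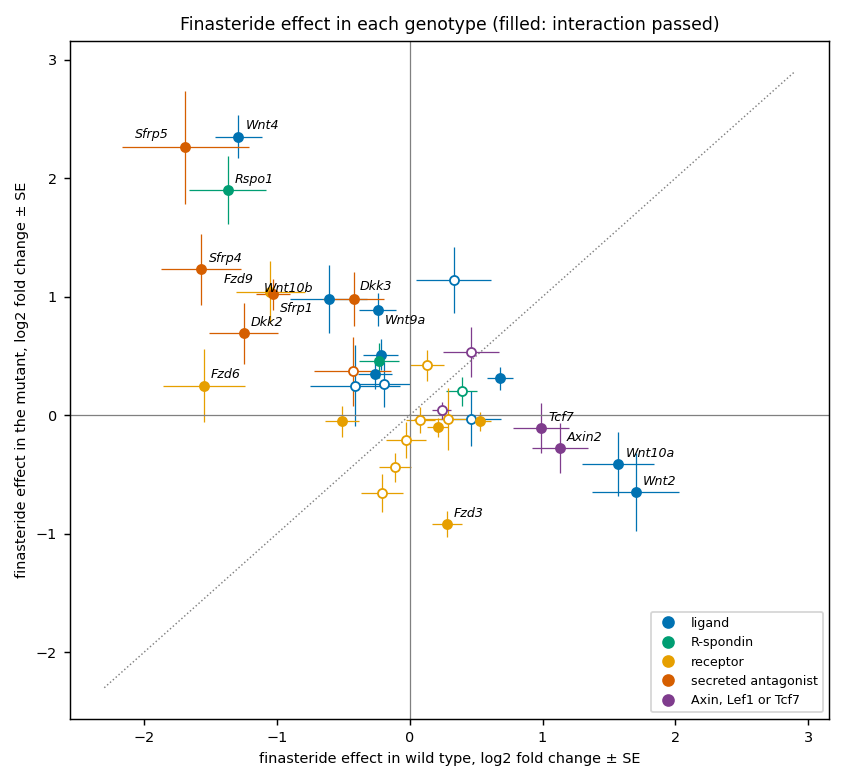
Log2 fold change ± SE with finasteride in the wild type (x axis) and in the mutant (y axis) for the 37 expressed members, coloured by role; filled points passed the interaction test, names mark those with an interaction of at least 1 log2 unit, and the dotted line marks equal effects. Sfrp5 and Wnt4 lie at upper left, with interactions of 3.94 and 3.64, and Wnt2 and Wnt10a at lower right, with -2.35 and -1.98.

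Among positive interactions the largest were those of Sfrp5, Wnt4 and Rspo1, followed by Sfrp4, Fzd9, Sfrp1 and Dkk2. The negative interactions of over 1 log2 unit were those of Wnt2, Wnt10a, Axin2, Fzd3 and Tcf7. Wnt4, Rspo1, Sfrp1, Sfrp4, Sfrp5, Dkk2 and Fzd9 fell with finasteride in the wild type and rose with it in the mutant, each passing in both. With all 16 libraries Fzd6 passed in the wild type alone, and Wnt10b, Dkk3 and Wnt9a in the mutant alone. Over 11 libraries only Wnt4 and Sfrp1 of these reversing members passed in both genotypes. On the negative side, Fzd3 rose in the wild type and fell in the mutant, passing in both. Its wild type rise lost the call in 13 of 16 fits without 1 library and over 11 libraries (adjusted p = 0.210). Wnt2, Wnt10a, Axin2 and Tcf7 rose in the wild type, and in the mutant their changes of -0.65, -0.41, -0.28 and -0.11 did not pass.

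Other genes of the Wnt pathway were taken from a list of 60, of which 57 were expressed. In the mutant on vehicle 19 rose and 14 fell, with finasteride in the wild type 18 and 16, with finasteride in the mutant 19 and 16, and between genotypes on finasteride 20 and 23. The interaction was positive in 23 and negative in 22. The shares of all genes, given above for these comparisons, were 14.6% and 17.5%, 18.4% and 21.7%, 25.7% and 22.8%, 33.2% and 30.4%, and 29.4% and 27.2%. In the 11 libraries the counts on the list were 9 and 7, 6 and 3, 11 and 9, 13 and 14, and 13 and 13. The list thus had no common direction, and its median changes were 0.06, -0.00, 0.12, -0.08 and 0.05 in that order.

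The 6 listed feedback or target genes of β-catenin had no common direction: 2 rose (Tnfrsf19 and Ascl2) and 2 fell (Sp5 and Nkd2) in the mutant on vehicle, with a median of -0.06, and the interaction was positive in 3 and negative in 2. Of all genes, 14.6% rose and 17.5% fell on vehicle, and the interaction was positive in 29.4% and negative in 27.2%. Over 11 libraries 1 of the 6 rose and 2 fell on vehicle, where 3.96% and 5.34% of all genes did. Tnfrsf19 was like Axin2 higher in the mutant on vehicle and with finasteride in the wild type, with a negative interaction. The same held for 4 genes listed under other roles, which were chosen here after their values were seen. Lgr5, a target gene also listed under another role, was instead lower in the mutant on vehicle (-1.57 ± 0.19, adjusted p = 2.05e-05). Znrf3, a ligase that clears Frizzled, was 8.79 to 9.32 in wild type vehicle, 9.66 to 10.06 in wild type finasteride, 9.98 ± 0.03 (SD, n = 3) in mutant vehicle and 9.17 to 9.39 in mutant finasteride libraries, with an interaction of -1.47 ± 0.15 (adjusted p = 1.97e-06). Apcdd1, a membrane-bound Wnt inhibitor, rose in the mutant on vehicle (1.66 ± 0.19, adjusted p = 1.63e-05) and with finasteride in the wild type (1.01 ± 0.17, adjusted p = 5.12e-04), and fell with finasteride in the mutant (-1.50 ± 0.17, adjusted p = 7.28e-06). Notum, an enzyme that removes the lipid from Wnt ligands, had an interaction of -1.33 ± 0.23 (adjusted p = 1.89e-04), and Tnfrsf19 one of -1.13 ± 0.26 (adjusted p = 0.00195). Rnf43, the partner of Znrf3, rose by 1.53 ± 0.09 in the mutant on vehicle (adjusted p = 1.92e-08) and by 0.25 ± 0.08 with finasteride in the wild type (adjusted p = 0.0166), with an interaction of -0.97 ± 0.11 (adjusted p = 4.56e-06). These 5 interactions were called over 11 libraries too.

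Nkd1, a feedback inhibitor that binds Dishevelled, was 8.74, 10.54 and 9.90 in wild type vehicle, 12.08, 11.62, 12.16, 12.07 and 12.00 in wild type finasteride, 10.10, 9.87 and 9.90 in mutant vehicle, and 9.32, 8.68, 9.19, 9.34 and 8.73 in mutant finasteride libraries. It was high in wild type finasteride alone, with a rise of 2.26 ± 0.29 (adjusted p = 6.68e-05), whereas the vehicle groups differed by 0.23 ± 0.32 (adjusted p = 0.624).

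Sp5, a transcription factor and Wnt target whose promoter is printed above, was opposite in sign to Axin2 in the mutant on vehicle. Its values were 8.09, 9.39 and 8.76 in wild type vehicle, 8.59, 8.25, 8.29, 8.46 and 8.34 in wild type finasteride, 5.55, 5.29 and 5.53 in mutant vehicle, and 8.15, 7.63, 7.70, 8.05 and 7.40 in mutant finasteride libraries. Mutant vehicle was below every other library. Sp5 was lower in the mutant on vehicle (-3.29 ± 0.25, adjusted p = 3.35e-07) and rose with finasteride there (2.33 ± 0.23, adjusted p = 1.46e-06), and both calls held over 11 libraries. Ccnd1, the cell cycle regulator cyclin D1, was 11.14 to 12.37 in mutant finasteride and 9.50 to 10.19 in wild type finasteride libraries, a difference of 2.0 ± 0.20 (adjusted p = 4.82e-07).

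Of 8 other expressed antagonists and modulators, whose symbols did not match the member list, 2 rose and 4 fell in the mutant on vehicle. With finasteride in the mutant 5 rose and 2 fell. The interaction was positive in 5 and negative in 2, Apcdd1 and Notum. Of all genes, 14.6% rose and 17.5% fell on vehicle, and 25.7% rose and 22.8% fell with finasteride in the mutant. The interaction was positive in 29.4% and negative in 27.2% of all genes. Over 11 libraries the counts on this list were 2 and 2, 2 and 1, and 3 and 2. The shares of all genes there were 3.96% and 5.34%, 11% and 9.24%, and 17.1% and 12.3%. Wif1, which binds Wnt ligands, was lower in the mutant on vehicle (-1.94 ± 0.15, adjusted p = 4.21e-07) and rose with finasteride there (0.80 ± 0.14, adjusted p = 2.19e-04), with an interaction of 1.59 ± 0.19 (adjusted p = 8.82e-06). Frzb, an Sfrp relative, had an interaction of 2.55 ± 0.38 (adjusted p = 5.99e-05), and those of Sostdc1, Cthrc1 and Sost were 3.03 ± 0.57, 3.0 ± 0.70 and 3.66 ± 0.97. Of these 5, Cthrc1 and Sost did not pass over 11 libraries. Dkkl1 fell with finasteride in the wild type (-1.75 ± 0.49, adjusted p = 0.0113), and its interaction of 1.49 ± 0.70 did not pass (adjusted p = 0.0792).

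**Figure D5:**
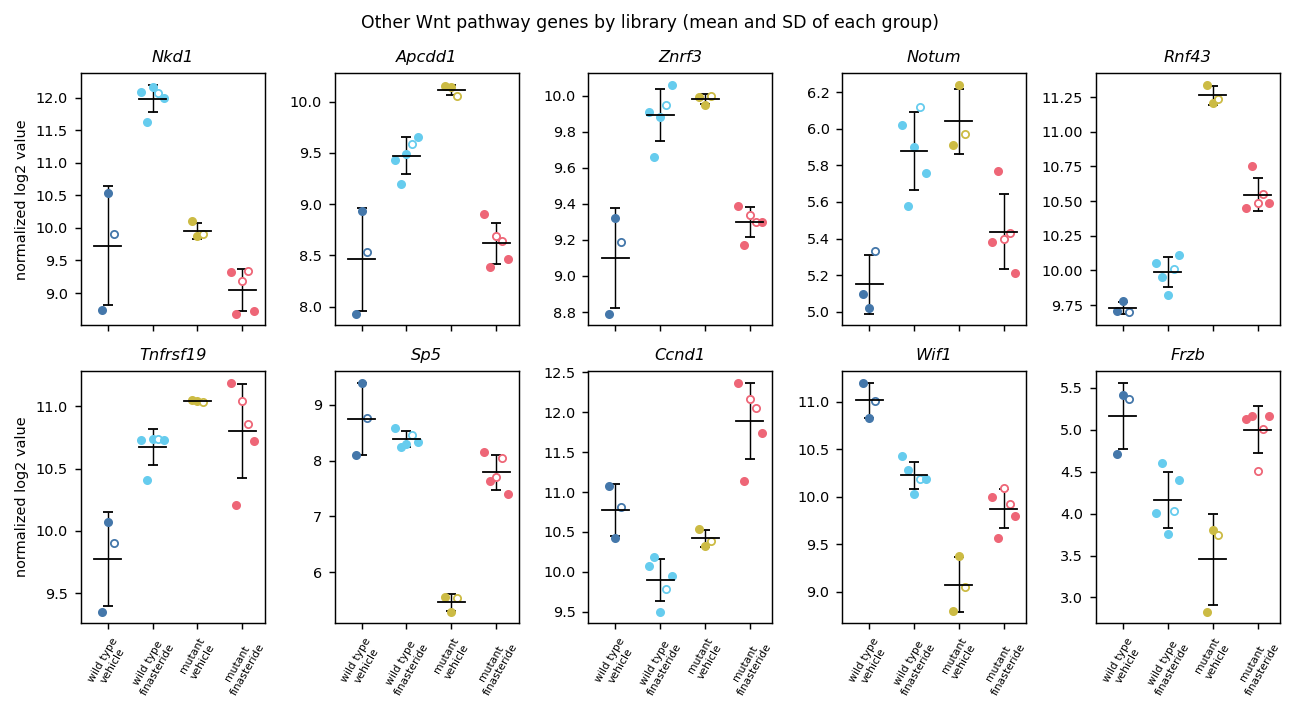
Normalized log2 value (y axis) of 10 other Wnt pathway genes in every library of the 4 groups (x axis), with group mean and SD; white-filled points are the 5 libraries close to a mixture of others. Nkd1 is high in wild type finasteride, at 11.62 to 12.16, and Sp5 is low in mutant vehicle, at 5.29 to 5.55.

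Further down the pathway, changes of at least 1 log2 unit were seen in a few genes. Lgr5, an R-spondin receptor, was lower in the mutant on vehicle (-1.57 ± 0.19, adjusted p = 2.05e-05), and Lgr4 was higher in the mutant on finasteride (1.03 ± 0.13, adjusted p = 5.23e-06). Tcf7l1, mainly a repressor, fell in the mutant on vehicle (-1.47 ± 0.19, adjusted p = 3.74e-05) and had an interaction of 1.99 ± 0.24, while the corepressor Tle1 had one of -1.52 ± 0.12 (adjusted p = 2.39e-07) and Tle4 one of 1.04 ± 0.30 (adjusted p = 0.00918). Ctnnbip1, which blocks β-catenin from its partners, fell in the mutant on vehicle (-1.34 ± 0.15, adjusted p = 9.70e-06), and Tnks fell with finasteride in the mutant (-1.03 ± 0.17, adjusted p = 1.34e-04). Nkd2 had an interaction of 1.33 ± 0.25 (adjusted p = 4.24e-04), opposite in sign to that of Nkd1, -3.16 ± 0.40. The glypican Gpc4 was 1.19 ± 0.10 higher in the mutant on finasteride (adjusted p = 1.19e-07). Over 11 libraries the lower levels of Lgr5, Tcf7l1 and Ctnnbip1 on vehicle were also called (adjusted p = 0.00642, 0.00938 and 0.00756). Among 10 nuclear factors the interaction was positive in 3 and negative in 6, where 29.4% and 27.2% of all genes were. Over 11 libraries these became 1 and 4, against 17.1% and 12.3%, so Tcf7l1 and Tle4 did not both keep the call.

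In the planar polarity branch, which works without β-catenin, 5 of 7 genes were higher in the mutant on finasteride and 1 was lower, where 33.2% and 30.4% of all genes were, and over 11 libraries 4 were higher and 1 lower. Celsr1 differed by 2.70 ± 0.19 (adjusted p = 1.42e-08), Celsr2 by 1.51 ± 0.18 (adjusted p = 4.29e-06), Celsr3 by 1.40 ± 0.38 (adjusted p = 0.00480) and Vangl2 by 1.20 ± 0.11 (adjusted p = 3.11e-07). Prickle2 was lower in the mutant on vehicle (-1.31 ± 0.30, adjusted p = 0.00379, and 0.0694 over 11 libraries). Markers of basal epithelium, which were also higher in the mutant on finasteride in 6 of 7 cases (4 over 11 libraries), summed to 12.73 to 13.21 there and to 11.93 to 12.23 in wild type finasteride. Their part in these differences was not tested. The other pathway genes on the list that were not expressed were Draxin, Lgr6 and Kremen2.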

How the data were processed

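The table the authors deposited holds 1 normalized log2 expression value per gene and library. Per the labels' protocols, poly-A RNA was made into TruSeq libraries and sequenced on a HiSeq2000. The submitters' processing notes name build mm9 and the tools TopHat, Cufflinks, DESeq, DESeq2 and CASAVA 1.8.2. Which of them made the table is not given in the sources used here. The base of the logarithm was inferred from the library totals, low values look compressed, which would understate changes of low genes, and read depth is unknown.

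Groups came from the labels. One mean per group was fitted to the log2 values of 16503 genes, those whose mean reached 3.32 (10 out of log2), with limma 3.58.1 in R 4.3.3, a variance trend, and Benjamini-Hochberg adjustment over those genes at 0.05. The 5 contrasts were the genotype effect on each treatment, the finasteride effect in each genotype, and their interaction. The fit was tested on simulated data. Errors beside fold changes are moderated SEs. The members and lists were chosen with earlier results of these data known. Values in all libraries are given for members called with a change of at least 1 log2 unit and for Axin2, Lef1 and Tcf7. Pathway genes called with such a change are named. A library counted as close to a mixture when 2 others of its group, each weighted at least 0.2, left a residual of at most 0.1 over genes at 8.0 or more.

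Alternatives were no filter, a filter at 50, quantile normalization, median scaling, no variance trend, an offset of 8, 11 libraries, only the 2 groups compared, and leaving out each library. A covariate, the summed level of 7 seminal vesicle genes, was added after seeing the data. The mutated gene is not reported here, and 0 libraries went against its label.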

Additional observations from a re-analysis of the deposited data

Results flagged for a closer look

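Of 74 groups of 5 libraries examined, 3 held a library far from the others, where chance gives about 1 in 20. Lrp5 was 11.70 in mutant finasteride 2 and 11.06 to 11.19 in the other libraries of that group. Tcf7 was 8.76 in wild type finasteride 2, against 9.21 to 9.40. Wnt9a was 6.10 in mutant finasteride 5, against 6.46 to 6.61. Mutant finasteride 2 also had the lowest seminal vesicle level of its group, 16.69 against 20.50 to 21.54.

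Finasteride acted differently in the 2 genotypes, by limma's interaction term with an adjusted p under 0.05, in 23 of the 37 members. Such calls were common among all genes, where 29.4% had a positive and 27.2% a negative interaction. Over 11 libraries 10 members were positive and 5 negative, against 17.1% and 12.3% of all genes. The interaction (log2) was positive for Sfrp5 (3.94), Wnt4 (3.64), Rspo1 (3.27), Sfrp4 (2.81), Fzd9 (2.10), Sfrp1 (2.05), Dkk2 (1.94), Fzd6 (1.8), Wnt10b (1.59), Dkk3 (1.40), Wnt9a (1.13), Wnt2b (0.73), Rspo3 (0.70), Wnt5a (0.61) and Fzd5 (0.46). It was negative for Wnt2 (-2.35), Wnt10a (-1.98), Axin2 (-1.40), Fzd3 (-1.20), Tcf7 (-1.09), Fzd7 (-0.58), Wnt7b (-0.37) and Fzd1 (-0.31). That of Wnt2b changed sign after quantile normalization (-0.18). Those of Fzd5, Fzd1 and Wnt7b were lost without at least 1 library (adjusted p up to 0.125, 0.0795 and 0.120 without wild type vehicle 1, mutant vehicle 1 and mutant vehicle 1). That of Wnt5a was 0.36 without mutant vehicle 2.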

How the results depend on the processing

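Counts of called members moved by over 1.5 times over 11 libraries, after quantile normalization and with the seminal vesicle covariate, and by less after median scaling. Over 11 libraries, members higher and lower numbered 3 and 5 in the mutant on vehicle, 5 and 3 with finasteride in the wild type and 5 and 1 with finasteride in the mutant; 7 were higher in the mutant on finasteride, and 5 had a negative interaction. These fits have fewer libraries and residual degrees of freedom. After quantile normalization 7 were lower in the mutant on vehicle, 7 rose and 6 fell with finasteride in the mutant, and 8 were higher and 11 lower in the mutant on finasteride. With the seminal vesicle covariate 6 rose and 4 fell with finasteride in the wild type, 5 were higher and 3 lower in the mutant on finasteride, and 5 had a negative interaction. The cause of these shifts was not tested. Leaving out 1 library gave 6 to 9 higher and 8 to 13 lower for genotype on vehicle, 7 to 11 and 8 to 10 for finasteride in the wild type, 11 to 17 and 3 to 4 for finasteride in the mutant, 10 to 17 and 4 to 5 for genotype on finasteride, and 14 to 16 and 6 to 9 for the interaction.

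Of 99 called pairs of a member and a contrast, 48 were also called over 11 libraries, and 23 lost the call without at least 1 library. The call was kept by 71 pairs after quantile normalization, where 3 changed sign: Wnt2b with finasteride in the mutant (-0.04), its interaction (-0.18) and Rspo1 between genotypes on finasteride (-0.05). Without an expression filter 89 kept it, with median scaling 90, without a variance trend 96, with the offset of 8 all 99, and with the covariate 69. Of the 78 pairs that could be tested under the stricter filter, 78 kept it, as did 68 of 76 with only the 2 groups compared. Low members such as Sfrp4, Fzd9 and Wnt11 have no known depth, so their counting error cannot be given. No paired analysis was possible because the sample titles carry running numbers that the groups do not share.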
